A study of Mus musculus with 7 samples.

Results

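The 11891 regions described here are stretches of the mouse autosomes in which an H3K4me2 peak was called in all 4 libraries of common monocyte progenitors (cMoPs), 2 labelled WT and 2 labelled DE. They were found by joining touching or overlapping autosomal peaks of the 4 lists into 39395 regions and keeping those that shared at least 1 bp with a peak of every list, which left 30.2%. Of the rest, 16729 regions were called in 1 list, 6231 in 2 and 4544 in 3. Within each library the shared regions were ranked by the highest −log10 p of their peaks, and the rank is given as a percentile, where 100 is the strongest region. The shift of a region is its mean DE percentile minus its mean WT percentile, in percentile points. A rank says how strong a region was against the other shared regions of its own library, so the values carry no absolute amount of H3K4me2.

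The study profiled histone marks in sorted bone marrow cells that differ in the −165-kb enhancer of Zeb2. WT is wild type, DE is a variant of that enhancer whose name the labels do not spell out, and no other allele, treatment, strain or age is stated. All 4 H3K4me2 libraries carry the batch label 2, so the genotypes were compared within 1 batch. Nothing in the labels says that the 2 libraries of a genotype came from separate mice, so p-values measure only the spread between these libraries, which may be technical. In sorted cells assayed in bulk, a change in the share of cells with the mark and a change in the mark per cell cannot be told apart.

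A cMoP is a bone marrow progenitor committed to the monocyte lineage. H3K4me2, histone H3 carrying a pair of methyl groups on lysine 4, marks promoters and enhancers in use, while H3K4me3 is concentrated at active promoters. CUTAC uses an antibody to bring Tn5 transposase to the mark and cuts the accessible DNA beside it. Zeb2 encodes a zinc finger repressor that binds E-boxes, the short motif CANNTG that is also bound by E proteins. ID proteins, such as ID2, lack a DNA-binding region and hold E proteins away from such sites.

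Promoters of regions with large shifts, and of genes that the study is about, are printed to show what DNA lies under them. Each is the RefSeq window from 250 bases before to 50 after a transcription start, in build GRCm38.p6 (mm10), read along the gene's strand, with every CANNTG E-box in capitals. Psap (chr10:60284211-60284510, plus strand) and Galnt10 (chr11:57645192-57645491, plus strand) lie under regions that ranked far higher in DE. The Psap window is of a start inside the gene, as its region lay 6.7 kb from the nearer gene end.
Psap: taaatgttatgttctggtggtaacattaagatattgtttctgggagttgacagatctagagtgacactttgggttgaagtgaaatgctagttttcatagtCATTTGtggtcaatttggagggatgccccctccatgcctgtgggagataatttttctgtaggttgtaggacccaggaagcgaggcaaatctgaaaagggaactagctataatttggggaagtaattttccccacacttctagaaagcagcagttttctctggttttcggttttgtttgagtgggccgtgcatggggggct
Galnt10: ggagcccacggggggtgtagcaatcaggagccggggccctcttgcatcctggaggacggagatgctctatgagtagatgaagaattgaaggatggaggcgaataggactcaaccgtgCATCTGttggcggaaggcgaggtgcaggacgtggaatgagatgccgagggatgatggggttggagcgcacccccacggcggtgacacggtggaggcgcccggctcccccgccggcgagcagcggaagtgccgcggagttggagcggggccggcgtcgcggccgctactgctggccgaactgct
Lmtk2 (chr5:144100111-144100410, plus strand), Nars2 (chr7:96951277-96951576, plus strand) and Crot (chr5:8997097-8997396, minus strand) lie under regions that ranked far lower in DE.
Lmtk2: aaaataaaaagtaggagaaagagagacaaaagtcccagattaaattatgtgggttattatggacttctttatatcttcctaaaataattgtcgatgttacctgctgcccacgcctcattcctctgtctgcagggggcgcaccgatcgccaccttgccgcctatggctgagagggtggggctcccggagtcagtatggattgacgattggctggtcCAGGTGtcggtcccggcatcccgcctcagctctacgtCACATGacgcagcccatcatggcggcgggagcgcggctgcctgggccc
Nars2: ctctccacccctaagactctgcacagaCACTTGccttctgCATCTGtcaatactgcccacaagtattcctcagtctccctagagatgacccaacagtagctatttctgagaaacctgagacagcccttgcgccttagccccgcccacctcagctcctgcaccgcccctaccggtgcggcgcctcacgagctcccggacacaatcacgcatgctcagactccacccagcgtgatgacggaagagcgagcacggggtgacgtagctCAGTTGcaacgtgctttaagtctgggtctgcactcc
Crot: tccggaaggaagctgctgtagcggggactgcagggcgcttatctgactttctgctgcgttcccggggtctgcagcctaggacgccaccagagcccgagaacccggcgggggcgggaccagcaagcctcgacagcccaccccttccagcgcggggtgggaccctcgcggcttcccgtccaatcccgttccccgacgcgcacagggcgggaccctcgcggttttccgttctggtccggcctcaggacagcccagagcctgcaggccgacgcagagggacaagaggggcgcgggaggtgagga
Zeb2 is the gene that the enhancer is named for, and its start at the end of the gene (chr2:45117393-45117692, minus strand) is printed. A further RefSeq start inside Zeb2 (chr2:45110228-45110527, minus strand) is not printed. Elane (chr10:79886062-79886361, plus strand) stands for the granule genes and H4c17 (chr13:21811496-21811795, plus strand) for the histone genes.
Zeb2: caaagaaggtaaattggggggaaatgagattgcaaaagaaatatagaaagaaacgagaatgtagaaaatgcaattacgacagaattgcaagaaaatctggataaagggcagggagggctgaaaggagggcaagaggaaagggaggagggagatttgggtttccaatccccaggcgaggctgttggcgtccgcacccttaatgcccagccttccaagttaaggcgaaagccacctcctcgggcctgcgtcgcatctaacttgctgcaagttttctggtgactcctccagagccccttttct
Elane: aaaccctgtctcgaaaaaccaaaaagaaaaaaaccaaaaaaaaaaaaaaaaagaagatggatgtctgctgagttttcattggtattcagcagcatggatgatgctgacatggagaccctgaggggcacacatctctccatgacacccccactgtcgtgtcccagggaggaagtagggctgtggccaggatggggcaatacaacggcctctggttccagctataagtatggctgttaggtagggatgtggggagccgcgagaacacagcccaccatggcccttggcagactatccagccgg
H4c17: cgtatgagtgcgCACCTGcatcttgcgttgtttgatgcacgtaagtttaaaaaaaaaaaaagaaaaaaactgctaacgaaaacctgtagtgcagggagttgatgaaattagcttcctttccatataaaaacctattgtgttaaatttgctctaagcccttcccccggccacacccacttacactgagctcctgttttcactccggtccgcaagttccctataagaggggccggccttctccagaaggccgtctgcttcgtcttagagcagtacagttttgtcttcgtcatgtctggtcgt
The window of Psap held 1 E-box and 3 CpG, and that of Galnt10 held 1 E-box and 28 CpG. Lmtk2 held 2 E-boxes, Nars2 3 and Crot none, so the number of boxes in these windows followed neither direction. The Zeb2 and Elane windows held none, which says only that these letters are not in the 300 bases printed.

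The lists differed in length and in the strength of their peaks. The WT lists held 32411 and 28198 peaks, and the DE lists 22013 and 17103, so the shared regions took up 47.1% and 48.6% of autosomal WT peaks but 58.6% and 76.0% of DE peaks. The shortest peak was 74 and 91 bp in WT and 109 bp in both DE lists. The median −log10 p over shared regions was 14.2 and 22.0 in WT and 13.1 and 10.1 in DE. Membership needs a peak in every list, and the weakest shared region had a −log10 p of 3.67 and 3.56 in WT and 3.60 and 3.74 in DE, beside 3.59, 3.56, 3.60 and 3.74 for the weakest peak of each list. Defining genes of the lineage were covered, with 3 regions assigned to Csf1r, 3 to Irf8, 3 to Klf4, 1 to Ly6c2, 2 to Kit, 1 to Cd34, 7 to Mpo and 10 to Fcgr3. The monocyte list had 41 regions in 17 of its 32 genes. Of lists for other cells, there was 1 region in 1 of 15 B cell genes and 4 in 3 of 15 T cell genes. There were 6 in 3 of 13 NK and innate lymphoid genes, 2 in 2 of 20 late neutrophil genes and 0 for 13 genes of mast cells, basophils and eosinophils. Erythroid and megakaryocyte genes had 12 regions in 7 of 19 genes. Conventional dendritic cell genes had 12 in 8 of 21, and plasmacytoid dendritic cell genes 21 in 6 of 16. The part of such cells in the results was not tested.

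Across the genome the shift between the genotype means ran from −71.5 to 70.1 points, with a median absolute shift of 11.1. Between single libraries, the median absolute difference was 12.9 points for the 2 WT libraries and 12.7 for the 2 DE libraries. For single libraries of different genotype it was 14.9 and 15.8 points from WT replicate 1 to DE replicates 1 and 2, and 12.7 and 13.8 from WT replicate 2. The difference between genotypes thus exceeded both values within a genotype for 3 of the 4 mixed pairs. Spearman's rho between libraries over the 11891 regions was 0.716 between the WT libraries and 0.709 between the DE libraries. The 4 mixed pairs gave 0.595, 0.633, 0.676 and 0.719. The first 3 lay below both values within a genotype, while WT replicate 2 lay as close to DE replicate 1 as to its own partner. Of all shared regions, 5498 (46.2%) moved by under 10 points and 1263 (10.6%) by over 30.

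Both DE libraries ranked above both WT libraries in 2497 regions (21.0%) and below both in 2296 (19.3%), together 4793 (40.3%). With 2 libraries per genotype only 6 assignments of the labels are possible, and each of these directions is among them. Many regions would therefore separate by label order alone, so the counts of separated regions are descriptive and are no test of a genotype effect. The groups were more than 20 points apart in 393 regions higher in DE and 395 lower. limma, fitted to normal scores of the ranks over all 11891 regions, called 0 regions higher (0%) and 0 lower at a Benjamini-Hochberg adjusted p under 0.05, with 0.366 as the smallest adjusted p. At an unadjusted p under 0.05 it gave 506 higher (4.26%) and 534 lower (4.49%), together 1040 (8.75%). A fit that lets the variance follow the mean score called 9 regions, all of them lower in DE, and 8 of the 9 lay in one array of 5S ribosomal RNA genes. The other, at an end of Gm13286 on chromosome 4, stood at percentiles 99.7 and 98.4 in WT and 80.5 and 57.5 in DE, and is named here after its values were seen.

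**Figure D1:**
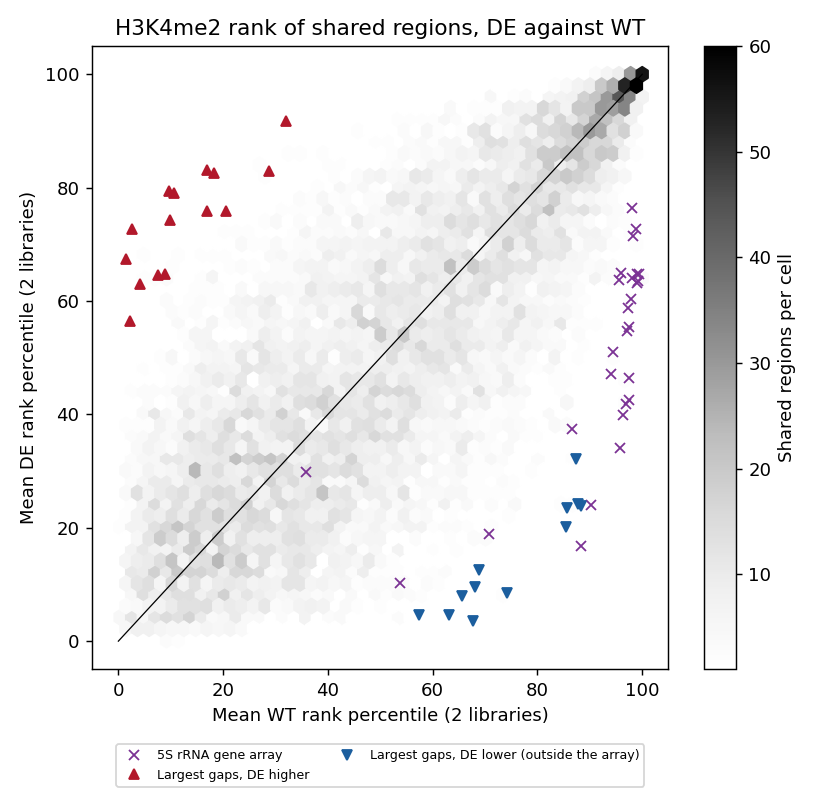
Mean WT rank percentile (x axis) against mean DE rank percentile (y axis) of the 11891 shared regions, with the number of regions per hexagon in grey and the line of equal rank in black. Most regions lie about the line, the 27 regions of the 5S rRNA gene array (crosses) lie below it, and triangles mark the regions with the largest gaps between the genotypes.

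Nearly all regions of one locus shifted together at the 5S ribosomal RNA genes, which encode the small RNA of the large ribosomal subunit that RNA polymerase III transcribes. This array was singled out after its values were seen. It spans chr8:123538784-123622046 (83.3 kb), with 48 annotated rRNA genes, 2 pseudogenes and no protein-coding gene. Of its 27 shared regions, 22 had a mean WT percentile of at least 90, and the median was 98.7 in WT replicate 1 and 95.4 in WT replicate 2. The lowest of the 27 stood at 57.5 and 14.2 in WT, over n-R5s112. The medians were 66.7 in DE replicate 1 and 36.1 in DE replicate 2. In 26 of the 27 regions both DE libraries ranked below both WT libraries, in 0 above, and 1 region overlapped between the groups, beside 19.3% lower over all shared regions.

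The median shift of the array was −42.1 points, from −71.5 to −5.95. The authors' fold over background told the same order, with medians of 27.3 and 26.0 in WT and 9.23 and 5.93 in DE. The median −log10 p was 61.0 and 68.2 in WT and 17.1 and 8.0 in DE. In limma, fitted to all regions, the smallest adjusted p in the array was 0.366. The mean percentile of the array minus that of all other regions was 45.01 and 38.04 in the WT libraries and 10.9 and −11.7 in the DE libraries, which differ by −41.9 (exact two-sided permutation test, p = 0.33, the smallest that 2 against 2 libraries allow). DE replicate 2 lay lowest and set much of the spread: the difference was −53.3 without DE replicate 1 and −30.6 without DE replicate 2.

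The region over n-R5s120 (chr8:123572574-123573183) had the widest gap of all shared regions. It stood at percentiles 87.4 and 89.2 in WT and 15.4 and 18.1 in DE. The region over n-R5s113 (chr8:123560586-123561416) stood at 97.2 and 96.6 in WT and 47.6 and 36.1 in DE. Both DE values lay far below both WT values in these 2 regions. Before the restriction to shared regions the array held 94 merged regions, of which WT replicate 1 called 90, WT replicate 2 called 61, DE replicate 1 called 41 and DE replicate 2 called 27.

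Strong regions elsewhere kept their place more closely. Of the shared regions outside the array with a mean WT percentile of at least 90, 955 in number, the median shift was −1.15. In DE 136 were higher (14.2%) and 314 lower (32.9%), beside 21.0% and 19.3% over all shared regions. The 22 array regions at that level had a median shift of −37.9, and all 22 were lower. A class chosen for high WT ranks can mostly move down, so these counts describe the array beside other strong regions and are no test. The 38 shared regions within 1 Mb of the array but outside it had a median shift of 5.38. The one shared region over an annotated rRNA gene elsewhere, at Rn4.5s on chromosome 6 (chr6:47654996-47655807), stood at 89.3 and 68.3 in WT and 66.3 and 29.2 in DE. Regions over tRNA genes, which the same polymerase transcribes, had a median shift of 2.69 over 47 regions, with 13 higher (27.7%) and 7 lower (14.9%). No array region overlapped a peak of the 1 H3K4me3 library of WT cMoPs, which carries the batch label 1 and had only 6427 peaks. The copies of the 5S gene are nearly identical, and how reads that fit several copies were placed is stated nowhere in the labels or headers. The 27 regions are therefore 1 locus rather than 27 independent values.

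**Figure D2:**
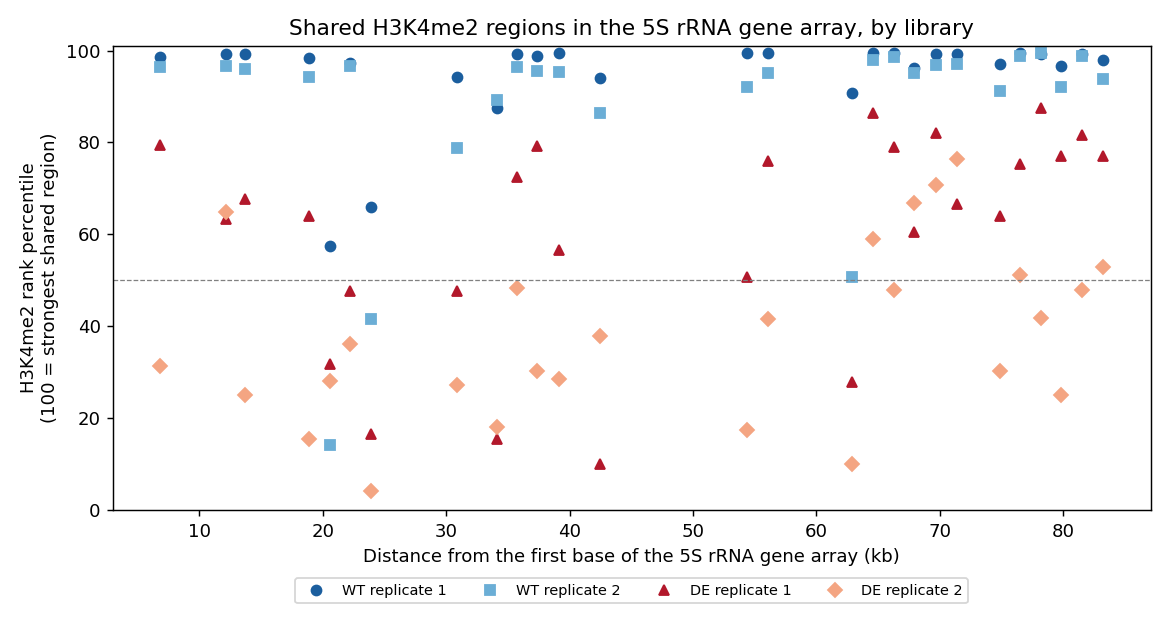
H3K4me2 rank percentile (y axis) of the 27 shared regions along the 5S rRNA gene array (x axis, distance in kb from the first base of the array), 1 point per region and library. WT replicates (blue) lie mostly above 90 and DE replicates (red) below them in 26 regions, with DE replicate 2 lowest in most.

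Outside the array, the regions with the widest gaps lay nearest to genes of varied function. Among the 15 with the largest gap higher in DE, the first lay inside Psap, 6.7 kb from the nearer end of the gene. Psap encodes prosaposin, the precursor of lysosomal activators of lipid breakdown. The region stood at percentiles 0.038 and 5.13 in WT and 75.3 and 70.1 in DE, where its −log10 p was 3.67, 7.07, 20.1 and 13.7 in the same order. It was thus among the weakest shared regions in both WT libraries and above percentile 70 in both DE libraries, with a limma difference of 3.12 ± 0.57 (SE) normal score units with an adjusted p of 0.366.

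The region nearest Frs2, an adaptor of fibroblast growth factor receptors, lay between genes, 1.6 kb from Frs2. It stood at 14.9 and 18.8 in WT and 81.0 and 85.4 in DE. That nearest Ptpn11, the phosphatase SHP2 that acts below cytokine receptors, also lay between genes, 7.8 kb from Ptpn11. It stood at 3.12 and 16.1 in WT and 82.6 and 76.2 in DE. Sos2, an exchange factor for RAS, stood at 10.7 and 25.9 in WT and 80.7 and 84.6 in DE. In each of these 3 the groups lay more than 50 points apart. A separate list of growth factor receptor and cytokine signalling genes held none of these 3 regions. It had 10 of 53 regions higher (18.9%) and 12 lower (22.6%). These lay near the 21.0% and 19.3% over all shared regions. The median shift of the list was −1.09, which ran from −2.71 to 1.49 over the alternatives.

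Galnt10, which starts mucin-type O-glycosylation, stood at 5.87 and 15.5 in WT and 83.0 and 75.2 in DE at its gene end. A region inside Set, a histone chaperone and inhibitor of the phosphatase PP2A, stood at 4.51 and 3.73 in WT and 62.9 and 63.1 in DE. The strongest region of Set, at chr2:30065905-30066786, hardly moved, at 97.8 and 97.9 in WT and 98.4 and 97.4 in DE. Hexim1, the inhibitor of the elongation factor P-TEFb, stood at 20.5 in both WT libraries and at 75.3 and 76.3 in DE. The Hexim1 shift depended on how regions were joined, as it was −3.69 when peaks within 500 bp were merged. Adamts7, Trp53i11, Zbed3, Tnrc18, Sh3gl1, Pycr1, Pde4d and Ciz1 made up the rest, with shifts of 54.2 to 66.0 points. The Pde4d region lies inside that gene but 121.8 kb from its nearer end, and the Ciz1 region lies between genes, 1.1 kb from Ciz1. Adjusted p-values of the 15 regions in limma ran from 0.366 to 0.454, so none passed.

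Of the 15 regions with the largest gap lower in DE, 3 were array regions, and 10 of the other 12 lay at gene ends. Over all 11891 shared regions 8001 did. Among the 15 higher in DE, those of Galnt10, Adamts7, Sos2 and Hexim1 lay at gene ends and the rest did not. Lmtk2, a membrane-anchored kinase, stood at 87.1 and 83.6 in WT and 30.3 and 9.98 in DE. Crot, a peroxisomal carnitine acyltransferase, stood at 79.2 and 56.2 in WT and 2.75 and 4.23 in DE. Nars2, the mitochondrial asparaginyl-tRNA synthetase, stood at 68.5 and 69.1 in WT and 9.06 and 16.0 in DE. All 3 ranked above percentile 50 in both WT libraries and at percentile 30.3 or below in both DE libraries.

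Rala, a small GTPase related to RAS, stood at 94.3 and 81.1 in WT and 29.4 and 19.0 in DE. Cxxc1 encodes the CpG-binding subunit of complexes that methylate H3K4, and its gene-end region stood at 60.4 and 70.8 in WT and 11.1 and 4.85 in DE. Tfeb, a regulator of lysosomal genes, stood at 70.7 and 65.5 in WT and 18.1 and 0.98 in DE. In these 3 as well both DE values lay below both WT values by more than 45 points. Trps1, a repressor of the GATA family, Slc12a9, Fam32a, Klhl7, Nabp1 and 1700037C18Rik completed the set, with shifts of −65.7 to −52.8. Adjusted p-values of the 15 ran from 0.366 to 0.454.

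**Figure D3:**
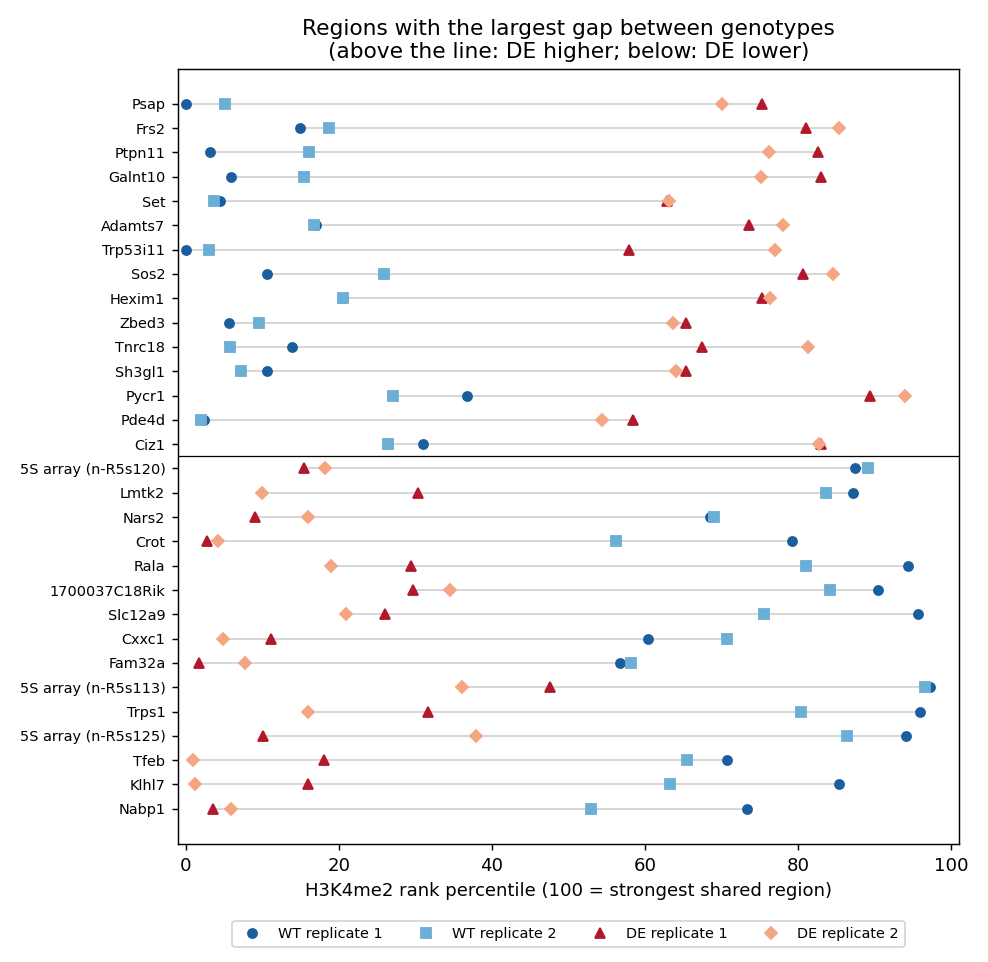
H3K4me2 rank percentile (x axis) in each of the 4 libraries for the 15 regions with the largest gap in each direction, named by the nearest gene or by the 5S gene they cover. Above the line both DE libraries (red) lie above both WT libraries (blue), and below it they lie under them.

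Where several shared regions were assigned to a gene, they seldom all moved one way. Assignment is by the nearest gene end within 100 kb, so an assigned region need not lie in the gene. Of 673 genes with at least 3 shared regions, all regions had a positive shift in 102 and a negative shift in 52. The genes with the highest median shift among the first were Set (40.7), Slc25a12 (38.9), Tbc1d17 (37.4), Arhgdib (30.1), Sun2 (29.5), Wapl (29.3), Zmynd8 (29.2) and Pik3cd (29.1), each with 3 regions. Slc25a12, a mitochondrial aspartate-glutamate carrier, and Pik3cd, the leukocyte catalytic subunit p110 delta of PI3 kinase, had all 3 regions higher in both DE libraries. Each of the others had 2 such regions, and the groups overlapped in the third. The smallest shift was 0.074 in Set, 1.46 in Sun2, 3.93 in Wapl and 3.97 in Tbc1d17. The regions at chr7:44839298-44839837 and chr7:44840594-44840912, assigned to Tbc1d17, overlapped Il4i1. Of those moving down, the 16 regions nearest Gas8 are mostly array regions and had a median of −46.3. Mrps23 (−36.5), Ahnak (−28.1), Eef2 (−24.5), Msl2 (−22.7), Brd3 (−18.9), Actb (−18.2) and Ppp2r5c (−17.2) followed with 3 regions each, of which 1 or 2 were lower in both DE libraries. The Mrps23 region with the largest shift (−58.5) lay between genes, 23.8 kb from Mrps23, and another lay inside Cuedc1. Regions assigned to Eef2, Actb, Ppp2r5c and Wapl also included some between genes.

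Among the gene lists with at least 5 regions, primary granule genes had the highest median shift. The list takes in genes of the proteases and peroxidase that progenitors of granulocytes and monocytes store, and also others such as Igfbp4. It held 33 shared regions in 13 genes, with 17 of 18 genes found in the annotation. Of these regions 12 were higher (36.4%) and 2 lower (6.06%) in both DE libraries, beside 21.0% and 19.3% over all shared regions, and the median shift was 8.89 beside 0.025. The libraries overlapped as a whole, with mean percentiles of 37.7 and 45.4 in WT and 41.9 and 54.1 in DE. The median shift was 18.6 without DE replicate 1 and 2.90 without DE replicate 2, and 1.04 over the 13 regions that each list covered by at least 50%.

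Mpo, the myeloperoxidase gene, had 3 of 7 regions higher, and the region at chr11:87795884-87796924 stood at 26.8 and 41.9 in WT and 73.6 and 73.3 in DE. Elane, the neutrophil elastase gene, had its one region at 55.3 and 72.6 in WT and 88.3 and 88.7 in DE. Prtn3, the proteinase 3 gene beside it, held regions of both kinds: one stood at 18.1 and 46.8 in WT and 72.2 and 81.0 in DE, and its neighbour at chr10:79881950-79882752 at 91.5 and 70.8 in WT and 1.05 and 63.5 in DE. Neither the Mpo nor the Prtn3 regions thus behaved as a block. The first of those Prtn3 regions had a shift of −4.63 when peaks within 500 bp were merged. The other lower region of the list lay inside Igfbp4, at 28.1 and 46.2 in WT and 4.73 and 14.1 in DE. Late neutrophil genes held only 2 shared regions, at Csf3r and Ifitm6.

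The C/EBP, IRF and PU.1 regulators, transcription factors of myeloid commitment, had 15 of 60 regions higher and 4 lower (25% and 6.67%, beside 21.0% and 19.3% over all shared regions), with a median shift of 3.20. That median was 0.73 without WT replicate 1. Irf8, which drives monocyte and dendritic cell fate, had all 3 regions higher. Its gene-end region at chr8:120737294-120737702 stood at 9.47 and 9.44 in WT and 43.0 and 37.3 in DE. Inside Runx1 one region stood at 6.39 and 59.8 in WT and 89.2 and 81.0 in DE, so the WT libraries were far apart there. Spi1, which encodes PU.1, had 1 of 6 regions lower, at 88.7 and 82.6 in WT and 72.7 and 50.2 in DE.

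AP-1 genes, the Fos, Jun and Maf families of signal-induced factors, had 12 of 38 regions higher and 2 lower (31.6% and 5.26%, beside 21.0% and 19.3% over all shared regions), with a median shift of 3.22, or 6.42 without WT replicate 1. Fosl2 led them with a region at 39.7 and 60.9 in WT and 92.2 and 83.6 in DE. Cell cycle genes had 12 of 44 regions higher (27.3%) and 5 lower (11.4%), with a median shift of 4.72, which was 1.83 without WT replicate 1 and 7.53 without WT replicate 2. They included 3 of the 4 regions of E2f2 among the higher, and a Ccnd2 gene-end region at 73.1 and 72.2 in WT and 27.8 and 31.6 in DE. Antigen presentation genes had 5 of 20 regions higher (25%) and 1 lower (5.0%). Their median was 2.77, and it was 0.62 without WT replicate 1, 0.92 without DE replicate 1 and 8.61 without DE replicate 2. Monocyte genes had 6 of 41 regions higher (14.6%) and 3 lower (7.32%), with a median of 0.89 that ran from −1.53 to 2.88 over the alternatives. Csf1r, the receptor for the growth factor of this lineage, had a region inside the gene at 87.1 and 86.7 in WT and 51.4 and 48.7 in DE. Of the 3 regions assigned to Csf1r, 1 was higher and 1 lower in both DE libraries.

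E protein and ID genes, the factors that bind or block E-boxes, had 11 of 35 regions higher (31.4%) and 6 lower (17.1%), beside 21.0% and 19.3% over all shared regions, with a median shift of 7.01. Without one library the median was 1.72 (DE replicate 2), 2.36 (WT replicate 2), 3.30 (DE replicate 1) or 5.74 (WT replicate 1). The median turned to −4.97 over the 17 regions left at a −log10 q of at least 5, to −0.33 with lists of equal length and to −0.68 with 50% cover. Zeb1, a relative of Zeb2 with the same binding motif, had a gene-end region at 10.9 and 7.22 in WT and 52.4 and 48.7 in DE. Id3 stood at 2.17 and 13.4 in WT and 21.3 and 59.0 in DE. Tcf3, which encodes the E proteins E12 and E47, stood at 87.6 and 55.7 in WT and 29.4 and 32.7 in DE. Id2 had a gene-end region near the top of every library, at 85.7 and 99.4 in WT and 99.8 and 99.9 in DE.

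Dendritic and stem cell lists showed members on both sides. Over all shared regions 21.0% were higher and 19.3% lower. Conventional dendritic cell genes had 5 of 12 regions higher (41.7%) and 2 lower (16.7%), with a median of 5.81. Plasmacytoid dendritic cell genes had 8 of 21 higher (38.1%) and 4 lower (19.0%), with a median of 5.16 that ran from 2.36 to 3.42 when any one library was left out, a list that shares Zeb2 and Tcf4 with the E protein list. Nfil3, a factor needed upstream of conventional dendritic cell fate, stood at 85.6 and 90.5 in WT and 43.5 and 28.5 in DE. Stem and progenitor genes had 14 of 66 regions higher (21.2%) and 13 lower (19.7%), near the shares over all regions, with a median of 1.28. Gata2, a stem cell and mast cell factor, stood at 68.8 and 71.4 in WT and 22.0 and 26.2 in DE, while Sox4 stood at 40.3 and 42.6 in WT and 76.3 and 89.2 in DE. Erythroid and megakaryocyte genes had 2 of 12 regions higher (16.7%) and 4 lower (33.3%), with a median of 2.04. Each of these 4 medians turned negative under some alternative, down to −1.50, −5.43, −0.26 and −2.67 in the order given.

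Replication-dependent histone genes, which sit in clusters and are expressed in S phase, leaned the other way. Of 45 regions in 42 genes, 3 were higher (6.67%) and 15 lower (33.3%) in both DE libraries, beside 21.0% and 19.3% over all shared regions, with a median shift of −11.2. Mean percentiles reached 67.4 and 55.5 in WT against 52.0 and 49.0 in DE, and the lower regions came from genes of H2A, H2B, H3 and H4. H2ac13 stood at 97.1 and 91.2 in WT and 70.1 and 30.3 in DE, and H4c17 at 47.0 and 42.6 in WT and 6.78 and 9.98 in DE. H2ac8 stood at 95.2 and 86.3 in WT and 61.0 and 50.2 in DE. WT replicate 1 ranked these genes highest, and the median shift was −2.15 without it and −19.9 without WT replicate 2. These genes are short and alike in sequence, so reads of one copy may have been placed at another. The part of this in the shift was not tested.

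Other lists of broadly expressed genes lay nearer to the 21.0% higher and 19.3% lower over all shared regions than the histone genes did. Cytosolic ribosomal protein genes had 10 of 61 regions higher (16.4%) and 17 lower (27.9%), with a median of −4.82 that was −1.61 without DE replicate 1, −2.10 without DE replicate 2 and −2.54 without WT replicate 2. Mitochondrial ribosome genes had 8 of 54 higher (14.8%) and 12 lower (22.2%), with a median of −3.86 that was −2.37 without WT replicate 1 and −7.24 without WT replicate 2. Respiratory chain genes had 9 of 59 higher (15.3%) and 14 lower (23.7%), with a median of −1.79 that was −0.61 without DE replicate 1, −4.23 without DE replicate 2 and −3.64 without WT replicate 2. Rpl7 had a region at 79.7 and 42.2 in WT and 1.40 and 0.62 in DE, whose shift was 0.31 when peaks within 500 bp were merged. Eef1a1, the elongation factor of translation, stood at 51.8 and 63.0 in WT and 12.4 and 5.19 in DE. Zinc finger (Zfp) genes, the largest list, had 53 of 284 regions higher (18.7%) and 59 lower (20.8%), close to the share over all shared regions. Proteasome genes (8 of 30 higher, 4 lower), housekeeping genes (8 of 35 higher, 6 lower), lysine methyltransferases and demethylases (11 of 53 higher, 8 lower) and interferon response genes (2 of 9 higher, 2 lower) had medians of 0.77 to 2.85, each of them negative under some alternative. The lowest adjusted p in limma over all lists was 0.366, and the lists were described by counts because no test of a list was made.

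**Figure D4:**
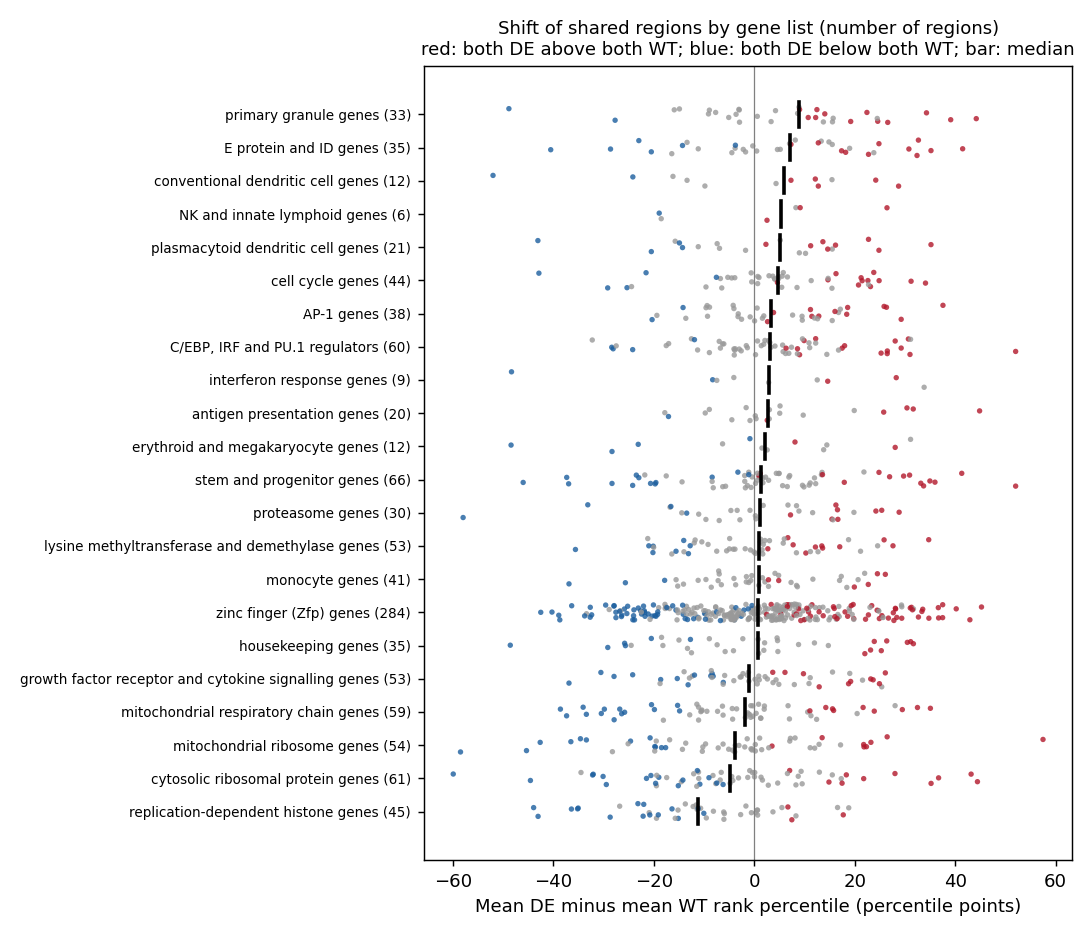
Shift of each shared region (x axis, percentile points) by gene list (rows, number of regions in brackets), with lists of under 5 regions left out. Points are red where both DE libraries lie above both WT libraries and blue where both lie below, and black bars are medians, from 8.89 for primary granule genes to −11.2 for histone genes.

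At Zeb2 itself the shared regions were weak to middling in rank. Within 300 kb of the gene (chr2:44983512-45117442) lay 6 shared regions, of which 5 were nearest to Zeb2 and 1 to Gtdc1. The gene-end region over the promoter printed above (chr2:45117052-45117587) stood at 8.35 and 2.75 in WT and 4.02 and 17.4 in DE, so that the genotypes overlapped. Inside the gene, the region at chr2:45112993-45113224 stood at 0.51 and 13.4 in WT and 27.4 and 36.1 in DE, and that at chr2:45111058-45111406 at 41.6 and 2.43 in WT and 49.5 and 64.8 in DE. Both were higher in DE, with adjusted p-values in limma of 0.527 and 0.571. The region at chr2:45110049-45110495 covers part of the window of the further Zeb2 start (chr2:45110228-45110527). It was lower, at 59.9 and 54.2 in WT and 43.0 and 42.5 in DE, with an adjusted p in limma of 0.834. In the region at chr2:45108623-45108885 the genotypes overlapped. The regions inside the gene overlapped an H3K4me3 peak, and the gene-end region did not. The genotypes overlapped in the Gtdc1 region as well, at 35.4 and 51.6 in WT and 77.6 and 31.9 in DE. Zeb2 thus held regions of both directions within its first 10 kb.

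Shifts differed slightly by place. Regions within 1 kb of an end of a protein-coding gene, 8001 in number, had a mean shift of −0.77, with 19.8% higher and 20.9% lower. The 2723 regions inside genes had a mean shift of 2.19, with 24.1% higher and 15.6% lower, and the 1167 regions between genes 0.16, with 22.1% and 16.97%. The mean percentile of gene-end regions minus that of all others was 7.25 and 9.17 in WT and 5.60 and 6.12 in DE, which differ by −2.35 (exact two-sided permutation test, p = 0.33). Both DE values lay below both WT values. For the 4627 regions that overlapped an H3K4me3 peak against those that did not, the same measure was 16.7 and 20.4 in WT and 17.6 and 16.9 in DE, with overlapping groups (difference −1.28, exact two-sided permutation test, p = 1). That difference was 0.59 without WT replicate 2. The H3K4me3 peaks came from 1 WT library of batch 1.

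Wide regions ranked higher in DE and narrow ones lower. In the narrowest of 5 width classes (126 to 299 bp) 17.3% of regions were higher and 23.5% lower, with mean percentiles of 41.5 and 42.2 in WT and 38.9 and 40.2 in DE. In the widest (650 to 3617 bp) 28.4% were higher and 15.01% lower, with mean percentiles of 58.4 and 56.8 in WT and 60.8 and 60.4 in DE. Both DE libraries thus lay on one side of both WT libraries in each of these classes, and the mean shift was −2.29 and 2.93. Peak lengths differ between the lists in the same direction, as the median peak was 152 and 212 bp in WT and 249 and 246 bp in DE, and the part of this in the width pattern was not tested. Mean shifts by chromosome ran from −2.41 on chromosome 8, or −0.78 without the 5S array, to 2.52 on chromosome 14.

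**Figure D5:**
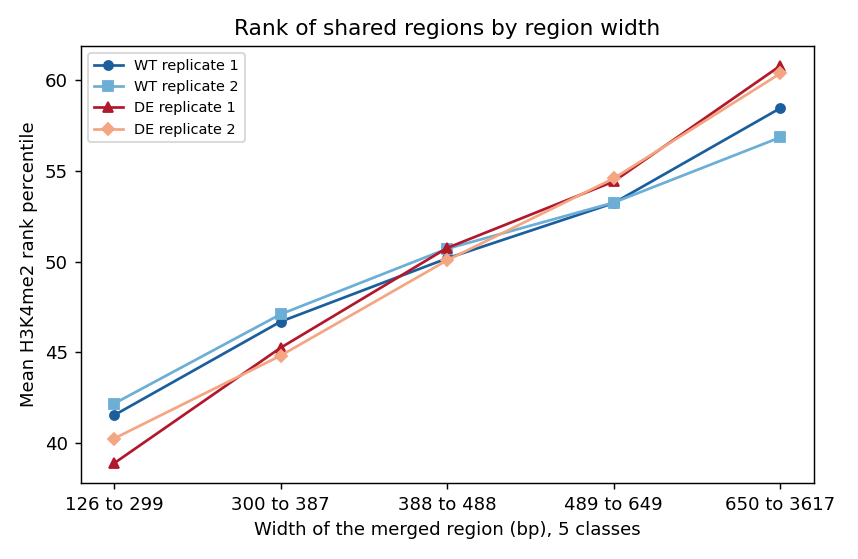
Mean H3K4me2 rank percentile (y axis) of shared regions in 5 classes of region width (x axis, bp), 1 line per library. The DE lines (red) lie below the WT lines (blue) in the narrowest class and above them in the widest.

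Shared regions that covered at least 150 bases of a RefSeq promoter window numbered 5526, with 993 higher (18.0%) and 1220 lower (22.1%) in DE. In the class with the fewest CpG (0 to 17 in 300 bases) the mean shift was 0.93, and in the other 4 classes it was −2.97 to −2.20. The E-box CACCTG of the ZEB family, searched on both strands and contained in CANNTG, was present in 19.4% of the higher and 13.5% of the lower promoters, beside 16.1% of the 5526 and 20.5% of all 31396 promoter windows. Any CANNTG was present in 63.3% of the higher and 57.5% of the lower promoters, beside 59.8% and 72.2%. CAGCTG, an E-box of E proteins, was present in 14.2% and 13.4%. The interferon response motif, GAAA, then any 2 bases, then GAAA, on either strand, was rare, in 4.03% of the higher and 1.80% of the lower promoters, beside 2.15% of the 5526 and 3.46% of all windows. The C/EBP motif TTGCNNAA (7.96% and 6.48%), the ETS and PU.1 motif GAGGAAG (12.3% and 13.4%), the AP-1 motif TGANTCA (2.82% and 2.79%), the GATA motif AGATAA (3.02% and 3.28%), the RUNX motif TGTGGT (10.9% and 10.8%) and the GC box GGGCGG (74.2% and 77.7%) were present at similar shares in both. The promoter groups were formed by rank, promoters of one region can share bases, and a match to letters is not a bound site.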

How the data were processed

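Peak lists of 4 H3K4me2 libraries and 1 H3K4me3 library, of 7 samples in the series, were used; the other 2 samples were not analysed here. Per the submitters' processing notes, MACS2 2.2.9.1, Bowtie2, Picard, SAMtools and Trimmomatic were used with mm10; their settings, any control and the read depth are not stated. Peaks were called per sample. Each deposited entry holds a score, a fold of signal over background (a linear ratio), the −log10 of p and of q, and a summit offset in bp, all the authors' own values. Inside both DE lists the header names DE replicate 2, so the sample of DE replicate 1 was taken from the series record.

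Entries with the same interval were counted once. Regions were ranked by the highest −log10 p, ties at their mean rank, and each region was assigned to the protein-coding gene of RefSeq GRCm38.p6 with the nearest end within 100 kb, which took in 11660 regions. Because the gene table gives no strand, a gene end is either end, within 1 kb. Ranks were turned into normal scores and fitted with limma 3.58.1 (R 4.3.3), DE minus WT, with Benjamini-Hochberg adjustment over all regions and a threshold of 0.05; the code was tested on simulated data. Single values per library were compared by exact permutation (two-sided, 6 assignments). Python 3.11.15 with numpy 2.4.6, pandas 2.3.3 and scipy 1.17.1 did the rest. The members and lists were chosen with earlier results of these data known. The text names the 15 regions with the largest gap between the groups in each direction and, among gene-end regions, the first few of 10, the 8 genes with at least 3 regions first by median shift, up to 2 regions per list and direction, and the regions within 300 kb of Zeb2; other regions of listed genes (Elane, Id2, Id3, H2ac13), the 5S array, the RNA classes and the width classes were chosen after values were seen. Alternatives changed the ranked column, scale, regions, list length, overlap, distances and replicates, and used the replicate number as a block.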

Additional observations from a re-analysis of the deposited data

Results flagged for a closer look

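Chromosomes X and Y were outside the comparison, and both held H3K4me2 regions called in all 4 lists: 270 on X and 5 on Y, above the 3 that finding 0 would still allow. On X the 4 lists held 1091 and 841 peaks in WT and 705 and 475 in DE, and on Y 46 and 29 in WT and 26 and 20 in DE. The order of the libraries was that of their list lengths on the autosomes. These regions were not ranked.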

How the results depend on the processing

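limma called 0 regions in either direction under every alternative but the variance trend, which called 9 lower in DE. Replicate numbers did not pair the libraries (r = −0.0026 between the replicate differences of the genotypes over 11891 regions), and with the replicate block limma called 0 higher and 0 lower, with 531 and 554 at an unadjusted p under 0.05. Regions whose groups do not overlap made up 20.3% to 21.4% higher and 18.8% to 21.4% lower with all 4 libraries, and 34.3% to 36.7% and 33.4% to 35.3% without one replicate, where fewer libraries have to be in order. The gene-end difference stayed negative, from −4.97 to −1.23, and without one replicate from −3.31 to −1.39. The H3K4me3 difference ran from −3.15 to 0.594 without one replicate and was 0.200 with lists of equal length. The 5S array difference stayed between −55.9 and −30.6, and with 50% cover no array region was left. The array, its alternatives and the centring by width were added after seeing the data.

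Among list medians larger than 1 pooled SD of the medians of single libraries, the sign changed for conventional dendritic cell genes (−0.293 to 8.30 without one replicate, lowest without WT replicate 1, and −1.50 with equal lists), interferon response genes (−0.965 to 6.66 without one replicate, lowest without WT replicate 1, −6.08 for regions of at least 300 bp, −2.95 with merging within 500 bp), zinc finger genes (−0.733 to 1.46 without one replicate, lowest without WT replicate 1, and −0.0341 at −log10 q of at least 5), NK and innate lymphoid genes (−4.45 to 6.30 without one replicate, lowest without DE replicate 1) and plasmacytoid dendritic cell genes (−0.162 for regions of at least 300 bp, −5.43 at −log10 q of at least 5, −5.18 with equal lists). Of 124 named regions, 12 changed sign under some alternative. Ranking by fold gave −1.51 for Bst2 and −7.53 for Klf1. Merging within 500 bp gave −3.69 for Hexim1, −1.46 for Sowahc, −4.63 for Prtn3, −13.8 for Tlr9, 4.84 for Maff, 2.79 for Tapbp, 4.51 for Kdm6b, 0.307 for Rpl7, −22.0 for H2bc12 and −3.93 for Zfp385a. The cause was not tested. Depth is not given, so no interval for a single peak was made, and 2 libraries per genotype limit every comparison.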
